A study of Homo sapiens with 4 samples.

Results

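The 10 genes described here encode amino acid transporters of the cell surface: SLC7A11, SLC7A5, SLC3A2, SLC7A1, SLC38A1, SLC38A2, SLC1A4, SLC1A5, SLC6A9 and SLC43A1. They are the rows that bear these symbols, a list drawn up with earlier results of these data known, and all 10 are among the 23459 genes counted in every library. The RNA-Seq data come from wild type hTERT RPE-1, a line of human retinal pigment epithelial cells made immortal with telomerase. All cells had been starved for 48 h in medium with 0.1% serum, which arrests them in G0/G1, and were then given 200 μM merbarone, a drug that blocks the catalytic activity of type II DNA topoisomerases. There were 2 libraries after 4 h (240 min) and 2 after 8 h (480 min), and each comparison below is of 8 h against 4 h. Both groups carried the drug and the low serum, untreated cells were not analysed here, and time with the drug cannot be told apart from further time in low serum.

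Cells take up most amino acids through solute carriers (SLC). Some of these work as a pair of chains. SLC3A2, the heavy chain also known as CD98hc or 4F2hc, brings light chains such as SLC7A5 and SLC7A11 to the plasma membrane and is joined to them by a disulfide bond, while the light chain moves the amino acids. Others, such as SLC7A1 and the SLC1, SLC6 and SLC38 families, carry amino acids without this heavy chain. When amino acids run short or the cell is stressed, phosphorylation of eIF2alpha raises translation of the transcription factor ATF4, which is known to activate many genes of amino acid uptake and synthesis through a DNA element called the C/EBP-ATF response element (CARE). Cystine taken up through SLC7A11 feeds the synthesis of glutathione, and the transcription factor NRF2, encoded by NFE2L2, acts on that branch through the antioxidant response element (ARE). Leucine taken up through SLC7A5 is a signal to the growth kinase complex mTORC1.

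Promoter sequences were looked at because ATF4 and NRF2 bind such elements. The RefSeq promoter table of GRCh38.p14 (250 bases before to 50 bases after each start) holds 16 windows for 9 of the transporters, and none for SLC7A11. The CARE core TGATGNAA, searched on both strands, was found in 5 of these 16 windows, each of a different transporter, and in 3.62% of all 35116 windows. Most of these matches lay at the start site or after it. With the bases before the start only, 1 of the 16 windows held the core, against 3.14% of all windows. In SLC3A2, SLC38A1, SLC1A4 and SLC1A5 the match lay in the window of the start furthest downstream, and their other windows held none. Of the 5 genes, SLC38A1 and SLC1A5 did not pass the test below. SLC7A5 and SLC6A9, which rose, held no CARE core, and neither did SLC38A2 and SLC43A1. A match is a run of letters and not a measured binding site, and which start these cells used was not measured. The matches are printed below, 5′ to 3′ on the strand of the gene, with the core in capitals, as a comparison of where the same letters fall in each gene. Where the core lies on the opposite strand (SLC3A2 and SLC1A4), the capitals are its reverse complement.
SLC7A1 (chr13:29595663-29595692, minus strand, transcript positions 8 to 15): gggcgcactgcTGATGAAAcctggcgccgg
SLC3A2 (chr11:62881719-62881748, plus strand, transcript positions 38 to 45): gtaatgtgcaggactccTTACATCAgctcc
SLC1A4 (chr2:64989381-64989410, plus strand, from 7 bases before the start): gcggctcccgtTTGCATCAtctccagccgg
SLC38A1 (chr12:46266502-46266531, minus strand, from 4 bases before the start): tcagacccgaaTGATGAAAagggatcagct
SLC1A5 (chr19:46784893-46784922, minus strand, from 97 bases before the start): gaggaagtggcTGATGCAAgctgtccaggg

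The ARE core TGACNNNGC was found in 4 of the 16 windows (SLC7A5, SLC3A2, SLC7A1 and SLC1A5), against 13.3% of all windows. In SLC7A5 it began 2 bases before the start. In SLC1A5, which did not pass the test below, it began 111 bases before the start, in another window than its CARE core. In SLC3A2 it began 37 bases before the start and in SLC7A1 85 bases before it, in the same windows that hold the CARE core. The matches in SLC3A2 and SLC7A1 are shown with the ARE core in capitals.
SLC3A2 (chr11:62881652-62881681, plus strand): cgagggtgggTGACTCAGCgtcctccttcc
SLC7A1 (chr13:29595754-29595783, minus strand): tgcccggcggTGACGCGGCcgagcgggccg
The E-box CACGTG, which is palindromic and is bound by MYC among others, was found in 3 of the 16 windows (SLC7A5, SLC1A5 and SLC43A1) and in 7.26% of all windows.

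The libraries held between 8064450 and 10324697 counts on genes. A gene was retained when 2 or more libraries had a CPM, the count scaled to the library total, over 1, and 12559 genes were, all 10 transporters among them. Values below are TMM-normalized counts, scaled to the mean effective library size, unless a level per kilobase is named. Of 14 markers of retinal pigment epithelium, KRT8, KRT18, TJP1, MITF and OTX2 had over 100 raw counts in each library. RPE65, RLBP1, BEST1, TYR, TYRP1, PMEL and MLANA had at most 12, and SERPINF1 and TTR at most 30. Of 11 markers of blood, endothelial, basal epithelial, photoreceptor and liver cells, none had more than 8 raw counts in a library, and their summed raw count was between 12 and 18. Of the 14 listed markers of retinal pigment epithelium, 7 were retained. Among these KRT18 was lower at 8 h (log2FC −0.51) and none was higher. The TMM-normalized sum of the 14 was 8686 and 9083 at 4 h, then 7921 and 8493 at 8 h. The part of these values in the results was not tested. In bulk RNA, fewer cells with a transcript and less transcript per cell cannot be told apart.

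The transcripts of 6 of the 10 transporters rose between 4 h and 8 h, namely SLC7A11, SLC6A9, SLC7A5, SLC7A1, SLC3A2 and SLC1A4, by 1.55-fold to 2.73-fold. The other 4, SLC38A1, SLC38A2, SLC1A5 and SLC43A1, did not pass the test. A rise is a Benjamini-Hochberg adjusted p below 0.05 over all 12559 genes in edgeR's quasi-likelihood test. Of all genes, 38.8% passed, 19.9% as higher and 18.8% as lower. None of the 10 was lower, also at an unadjusted p below 0.05 and also by Limma-Voom and DESeq2. SLC7A11 and SLC6A9 also had a log2 fold change (log2FC) above 1, as did 1.45% of all genes. An absolute log2FC above 1 with a passed test was seen in 5.33% of all genes, 3.88% being lower. The median log2FC of the 10 genes was 0.66, and that of all retained genes was −0.002. In 9 of the 10, both 8 h libraries lay above both 4 h libraries, which 34.8% of all genes did. The times did not overlap, in either direction, for 69.7% of all genes.

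**Figure D1:**
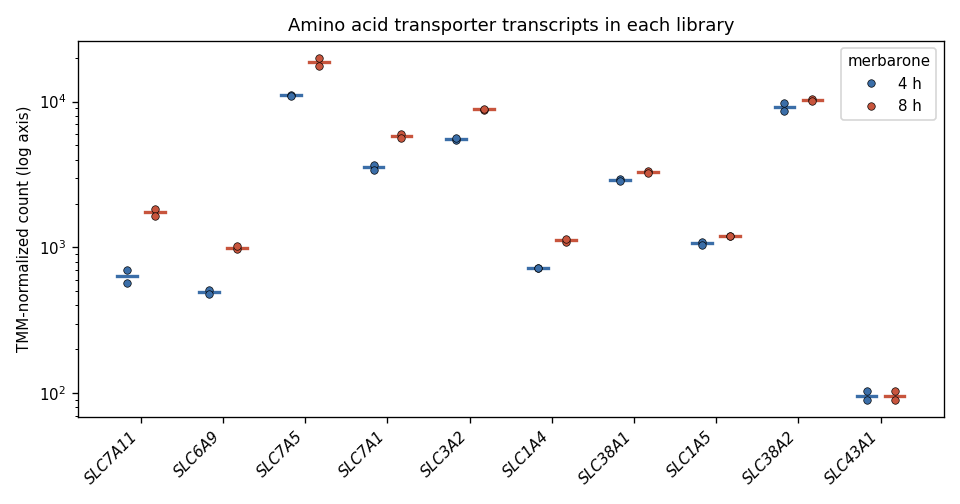
TMM-normalized counts (log axis) of the 10 transporters in the 2 libraries at 4 h (blue) and the 2 at 8 h (red), with bars at the means and genes ordered by log2 fold change. The points of the times are far apart for SLC7A11 (568 and 704 against 1644 and 1828), close for SLC38A2 and overlapping for SLC43A1.

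Among the genes of the heavy chain system, SLC7A11 changed the most. It encodes xCT, which exchanges extracellular cystine for glutamate (chromosome 4, 139085251 to 139163503, minus strand, hg19). Its normalized counts were 704 and 568 at 4 h, against 1828 and 1644 at 8 h. The lowest 8 h library was thus well above the highest 4 h library, by 1.22 on the log2 scale, whereas the replicates differed by 0.31 at 4 h and by 0.15 at 8 h. The mean went from 635.5 ± 96.2 to 1736 ± 130.0 (SD, n = 2 each), a log2FC of 1.45 with a standard error of 0.10 (edgeR adjusted p = 2.58e-09). It ranked at place 48 of the 12559 genes by log2FC. It was also the only transporter to pass edgeR's glmTreat, a test against a log2FC of 1. With the abundance trend removed or any library left out, its log2FC stayed between 1.30 and 1.61. SLC7A11 shares 865 bases of exon with the antisense gene SLC7A11-AS1, which had at most 3 counts in a library.

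SLC7A5 encodes LAT1, which brings in leucine and other large neutral amino acids in exchange for glutamine (chromosome 16, 87863629 to 87903113, minus strand, hg19). It had the highest counts of the 10 in every library, with 11079 and 10936 at 4 h, against 17463 and 19976 at 8 h. The 8 h replicates differed from each other more than those at 4 h did, but both were well above 4 h. The mean rose from 11008 ± 101.4 to 18719 ± 1777 (SD, n = 2 each), with a log2FC of 0.77 and a standard error of 0.07 (edgeR adjusted p = 1.33e-07). Reads that fit both SLC7A5 and a near-identical copy were dropped in mapping, and its listed pseudogenes SLC7A5P1 and SLC7A5P2 had at most 7 counts.

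SLC3A2, the common heavy chain (chromosome 11, 62623476 to 62656352, plus strand, hg19), had 5420.3 and 5614 normalized counts at 4 h, against 8741 and 8962 at 8 h. Replicates were close together at each time, and the times did not overlap. Its log2FC was 0.68 with a standard error of 0.07 (edgeR adjusted p = 2.92e-07), near that of SLC7A5, and the intervals of both genes overlapped (95% interval 0.54 to 0.82 for SLC3A2 and 0.62 to 0.92 for SLC7A5). The ratio of the level per kilobase of SLC7A5 to that of SLC3A2 was 0.85 and 0.81 at 4 h, against 0.83 and 0.92 at 8 h, so that the times overlapped. The same ratio for SLC7A11 to SLC3A2 was 0.025 and 0.020 at 4 h, against 0.041 and 0.036 at 8 h, without overlap. With 2 libraries against 2, an exact two-sided permutation test cannot give a p below 0.333, which is the p of this second ratio. It was 0.667 for the first ratio. Of these light chains, SLC7A11 had the less abundant transcript at both times, with 37.1 ± 5.27 SLC7A5 per SLC7A11 at 4 h, against 23.0 ± 3.89 at 8 h (SD, n = 2 each, levels per kilobase). The size of each of these ratios depends on the transcript lengths used, 4556 bases for SLC7A5, 9645 for SLC7A11 and 1885 for SLC3A2. With the length of all annotated exons (6392 bases for SLC3A2), SLC7A5 was well above SLC3A2 at both times. The mean levels were then 241.0 against 90.0 at 4 h, and 409.9 against 144.5 at 8 h.

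SLC7A1 encodes CAT-1, a carrier of arginine, lysine and ornithine that needs no heavy chain (chromosome 13, 30083551 to 30169825, minus strand, hg19). Its counts were 3691 and 3383 at 4 h, against 5968 and 5629 at 8 h. The times were apart and the log2FC was 0.71 with a standard error of 0.07 (edgeR adjusted p = 4.53e-07). Its window, printed above, holds both the CARE and the ARE core.

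SLC6A9 encodes the glycine transporter GlyT1, driven by sodium and chloride (chromosome 1, 44457172 to 44497139, minus strand, hg19). It had 514 and 478 normalized counts at 4 h, against 973 and 1023 at 8 h, so the level about doubled with no overlap. The log2FC was 1.01 with a standard error of 0.09 (edgeR adjusted p = 9.59e-08). This lies on the fold-change threshold, since leaving out each library in turn gave 0.96 to 1.05, and scaling by library size alone gave 0.90. No CARE or ARE core was found in its windows. SLC6A9 shares 413 bases of exon with CCDC24 on the other strand, 46 of them in its canonical exons. CCDC24 had 89 to 103 counts.

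The sodium-dependent exchangers of the SLC1 family had unlike values. SLC1A4 encodes ASCT1, which exchanges alanine, serine and cysteine (chromosome 2, 65215611 to 65250999, plus strand, hg19). It rose from 726 and 719 to 1097 and 1141 normalized counts, with a log2FC of 0.63 and a standard error of 0.09 (edgeR adjusted p = 1.09e-05). SLC1A5 encodes ASCT2, known for the uptake of glutamine (chromosome 19, 47278140 to 47291851, minus strand, hg19). It had 1097 and 1043 counts at 4 h, against 1201 and 1192 at 8 h, with a log2FC of 0.16 that did not pass the test (95% interval −0.01 to 0.33, edgeR adjusted p = 0.127). The interval of SLC1A4 was 0.45 to 0.81 and did not overlap that of SLC1A5. Within each library, the level per kilobase of SLC1A5 relative to SLC1A4 was 2.39 and 2.30 at 4 h, against 1.73 and 1.65 at 8 h, lower in both 8 h libraries (exact permutation test, p = 0.333, the smallest possible). Both genes have a window with the CARE core, as printed above, and SLC1A5 also has one with the ARE core. SLC1A5 shares 780 bases of its canonical exons with an antisense gene that is not among the genes counted.

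The system A carriers take up small neutral amino acids such as alanine and glutamine together with sodium. SLC38A1 (chromosome 12, 46576846 to 46663800, minus strand, hg19) had 2966 and 2841 normalized counts at 4 h, against 3336 and 3219 at 8 h. Its log2FC of 0.18 did not pass the test (95% interval 0.02 to 0.33, edgeR adjusted p = 0.0656). SLC38A2 (chromosome 12, 46751971 to 46766556, minus strand, hg19) had 9715 and 8655 counts at 4 h, against 10406 and 10013 at 8 h. The 4 h replicates of SLC38A2 were further apart than the nearest libraries of different times, and its log2FC of 0.15 did not pass (95% interval 0.00 to 0.30, edgeR adjusted p = 0.100). Intervals of both genes lie below those of the 6 transporters that rose. Without replicate 2 of 8 h, which was the lower 8 h library for both genes, SLC38A1 passed (log2FC 0.20, edgeR adjusted p = 0.0419) and so did SLC38A2 (log2FC 0.18, edgeR adjusted p = 0.0405). With the trend against abundance removed, the log2FC of SLC38A2 was −0.031. The ratio of SLC38A2 to SLC38A1 per kilobase was 5.53 and 5.14 at 4 h, against 5.27 and 5.25 at 8 h, so it overlapped between the times.

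SLC43A1 encodes LAT3, which lets branched-chain amino acids pass without sodium (chromosome 11, 57252007 to 57283253, minus strand, hg19). Its counts were the lowest of the 10, with 103 and 89.7 at 4 h, against 103 and 89.5 at 8 h. The times overlapped fully and the log2FC was 0.00 with a standard error of 0.19 (edgeR adjusted p = 0.989). At this depth the 95% interval, −0.40 to 0.41, was the widest of the 10 genes, so a change of the size seen for SLC38A1 was not detectable here.

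**Figure D2:**
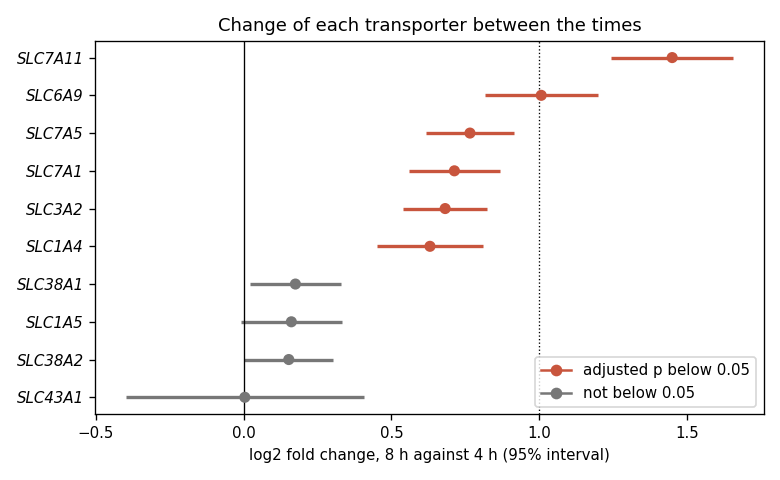
Log2 fold change of each transporter, 8 h against 4 h (horizontal axis), with its 95% interval from the edgeR fit on 2 libraries per time. Red genes passed at an adjusted p below 0.05 and grey genes did not, and the dotted line marks a log2 fold change of 1, which only the interval of SLC7A11 lies wholly above (1.24 to 1.66).

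The levels per kilobase of the canonical transcript (TMM CPM per kilobase) spanned a wide range at 4 h. SLC3A2 (305.3 ± 7.59) was the highest, followed by SLC7A5 (252.0 ± 2.32) and SLC38A2 (199.8 ± 16.3; SD, n = 2 each). SLC7A1 was at 50.2 ± 3.09. SLC1A5 at 38.7 ± 1.38 and SLC38A1 at 37.4 ± 1.14 overlapped between libraries, and so did SLC1A4 at 16.5 ± 0.11 and SLC6A9 at 16.1 ± 0.84. SLC7A11 (6.87 ± 1.04) and SLC43A1 (4.00 ± 0.39) were the lowest. At 8 h the order was the same, except that SLC6A9 (32.5 ± 1.15) then exceeded SLC1A4 (25.6 ± 0.70) in both libraries. SLC7A11 reached 18.8 ± 1.41, and the neighbours SLC1A5 (43.3 ± 0.23) and SLC38A1 (42.2 ± 1.06) differed by about the spread of the latter. These levels depend on the transcript chosen. With the length of all annotated exons of a gene in place of the canonical transcript (6392 in place of 1885 bases for SLC3A2), SLC7A5 was the highest and SLC3A2 came after SLC38A2 at both times. By that length SLC7A11 (18.8) also came before SLC1A4 (16.8) at 8 h.

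**Figure D3:**
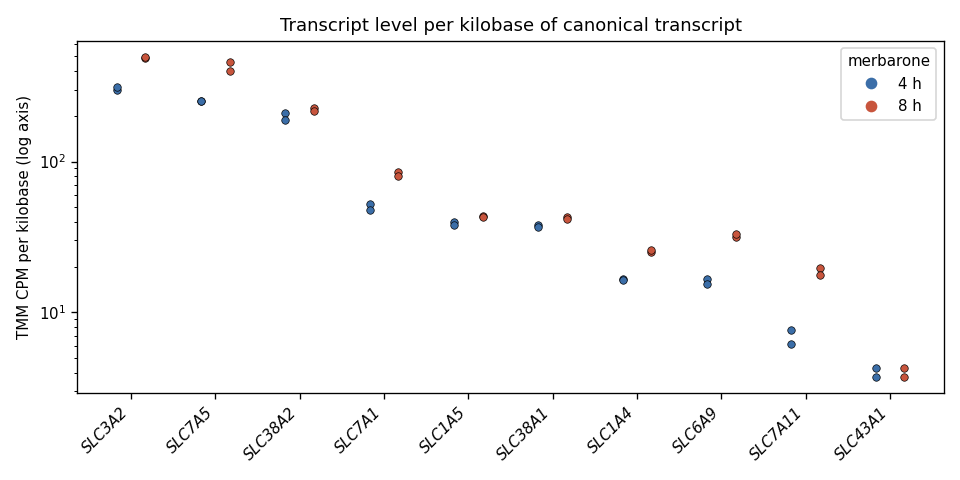
TMM CPM per kilobase of the canonical transcript (log axis) for each transporter, with 1 point per library at 4 h (blue) and 8 h (red), ordered by the 4 h mean. SLC3A2, SLC7A5 and SLC38A2 lie above 188 in every library, and SLC43A1 lies between 3.71 and 4.29.

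The share of a library's counts on the 10 genes was 0.389% and 0.372% at 4 h. It was higher in both 8 h libraries, at 0.517% and 0.528%. SLC7A5 alone made up 30.8% and 31.9% of the counts of these genes at 4 h, and 34.2% and 37.8% at 8 h. Fold changes depended somewhat on abundance. With this trend removed, the median log2FC of the 10 genes was 0.52 in place of 0.66, the 6 transporters passed as higher again, and their log2FC ranged from 0.51 (SLC3A2) to 1.36 (SLC7A11). Scaling by library size alone moved the median log2FC of all genes to −0.11, and the 6 passed again, with log2FC from 0.52 (SLC1A4) to 1.34 (SLC7A11).

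**Figure D4:**
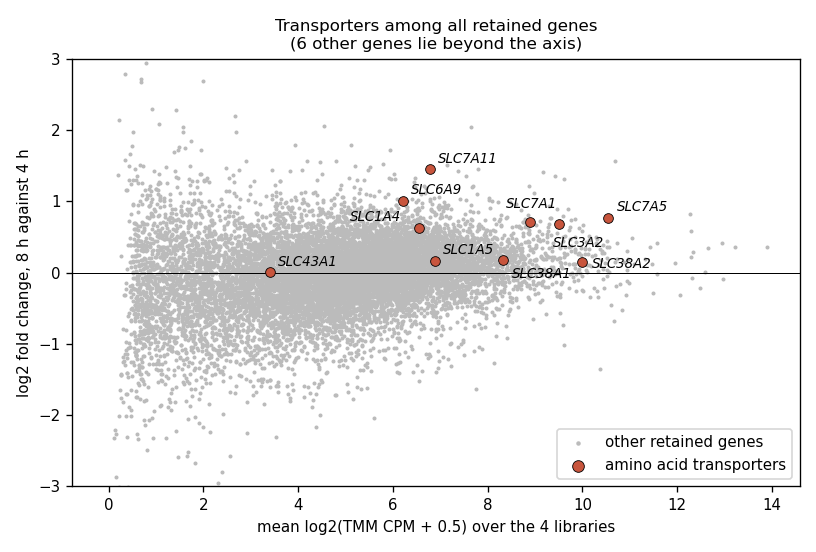
Log2 fold change, 8 h against 4 h, against mean log2(TMM CPM + 0.5) over the 4 libraries for the retained genes, with the 10 transporters in red. SLC7A11 and SLC6A9 lie at 1.45 and 1.01, in the middle range of abundance, while SLC7A5, SLC3A2 and SLC7A1 lie between 0.68 and 0.77 among abundant genes.

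Most other amino acid transporters, on a list called cell surface transporters here, had few or no counts. Where each protein lies in the cell was not measured, and some may also lie on inner membranes. Of 35 listed genes 10 were retained, 14 had no count in any library, and the rest had at most 14. Of the 10, 3 passed as higher (30%) and 2 as lower (20%), against 19.9% and 18.8% of all genes. The median log2FC was −0.01. SLC6A15, a carrier of branched-chain amino acids and proline, rose from 180.3 ± 28.0 to 387.5 ± 23.0 normalized counts (SD of 2 libraries; log2FC 1.10, edgeR adjusted p = 3.42e-06). SLC7A8, which encodes LAT2, a further light chain of SLC3A2, rose from 76.7 ± 5.65 to 146.9 ± 6.67 (SD of 2 libraries; log2FC 0.93, edgeR adjusted p = 0.000498). SLC36A4 was higher with a log2FC of 0.51 (edgeR adjusted p = 0.0240), which did not pass with DESeq2, with scaling by library size or without 3 of the 4 libraries in turn (adjusted p up to 0.130). SLC7A6, the light chain y+LAT2, was lower with a log2FC of −0.27 (edgeR adjusted p = 0.0388), which did not pass with DESeq2, without a filter or without 3 of the 4 libraries in turn (adjusted p up to 0.211). SLC38A10 fell from 893.0 ± 19.2 to 553.0 ± 96.5 (SD of 2 libraries; log2FC −0.70, edgeR adjusted p = 3.98e-05). Here and in the lists that follow, genes other than those of the naming rule were named after their values were seen.

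Among 15 retained transporters of mitochondria, lysosomes and other organelles, 1 passed as higher (6.67%) and 3 as lower (20%). Of all genes, 19.9% and 18.8% did. The median log2FC of the list was −0.02. SLC36A1, a carrier of the lysosome, was the higher one, with a log2FC of 0.67 (edgeR adjusted p = 0.00282). SLC25A12, the mitochondrial aspartate-glutamate carrier, fell from 169.6 ± 6.32 to 72.2 ± 1.99 normalized counts (SD of 2 libraries; log2FC −1.23, edgeR adjusted p = 2.75e-05). SFXN3 had a log2FC of −0.49 (edgeR adjusted p = 8.68e-05). The mitochondrial glutamate carrier SLC25A22 had a log2FC of −0.51 (edgeR adjusted p = 0.0136), and did not pass with DESeq2, without replicate 1 of 4 h or without replicate 1 of 8 h (adjusted p up to 0.144).

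The eIF2alpha kinase and ATF4 genes moved in both directions. Of 21 retained genes 12 passed as higher (57.1%) and 5 as lower (23.8%), against 19.9% and 18.8% of all genes. The median log2FC was 0.38. EIF2AK1 (log2FC −0.20), CEBPG (0.18), SESN2 (0.15) and DDIT4 (−0.04) did not pass (edgeR adjusted p from 0.0567 to 0.689). TRIB3, a pseudokinase gene, rose from 2939 ± 68.2 to 6845 ± 38.0 normalized counts (SD of 2 libraries, log2FC 1.22, edgeR adjusted p = 5.58e-10). DDIT3, which encodes the transcription factor CHOP, rose with a log2FC of 0.88 (edgeR adjusted p = 2.67e-08). ASNS, asparagine synthetase, rose with a log2FC of 0.61 (edgeR adjusted p = 7.23e-05), near the values of SLC7A1, SLC3A2 and SLC1A4. ATF4 itself went from 2609 ± 25.8 to 3257 ± 308.3 (SD of 2 libraries; log2FC 0.32, edgeR adjusted p = 0.00315). It did not pass with the abundance trend removed (log2FC 0.18, adjusted p = 0.0761) or without replicate 1 of 4 h (log2FC 0.30, adjusted p = 0.0559). These are transcript counts, and the translation by which ATF4 is mainly controlled was not measured. EIF2AK3, which encodes the eIF2alpha kinase PERK of the endoplasmic reticulum, rose with a log2FC of 0.61 (edgeR adjusted p = 0.000293). PPP1R15A, which encodes the phosphatase subunit GADD34 that reverses eIF2alpha phosphorylation, rose with a log2FC of 0.67 (edgeR adjusted p = 2.60e-07). The genes that passed as lower were ATF3 (log2FC −0.54), ATF5 (−0.56), CHAC1 (−0.36), EIF2AK2 (−0.37) and EIF2AK4 (−0.30), the last of which encodes GCN2, the kinase that senses uncharged tRNA. Of these, ATF5, EIF2AK2 and EIF2AK4 did not pass with DESeq2 (adjusted p of 0.0504, 0.0988 and 0.109), and each was also lost without 2 of the 4 libraries in turn. EIF2AK4 had a log2FC of −0.19 without replicate 2 of 4 h (adjusted p = 0.338) and −0.15 without replicate 1 of 8 h (adjusted p = 0.279). ATF5 was lost without replicate 1 of 4 h (adjusted p = 0.104) and without replicate 2 of 8 h (adjusted p = 0.0793), and EIF2AK2 without either library of 4 h (adjusted p of 0.0966 and 0.0987).

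Synthesis of serine and glycine and their use in one-carbon metabolism moved in both directions. Of 8 retained genes 5 passed as higher (62.5%) and 2 as lower (25%), against 19.9% and 18.8% of all genes. PHGDH (log2FC 0.39) and PSAT1 (0.45) of serine synthesis were higher. So were SHMT2 (0.47), MTHFD2 (0.64) and MTHFD1L (0.66) of the mitochondrial folate pathway. PSPH, also of serine synthesis, had a log2FC of −0.33 that did not pass (edgeR adjusted p = 0.0510). Both of its 8 h libraries lay below both 4 h libraries. The 2 that fell encode cytosolic enzymes of the folate pathway. SHMT1 went from 320.2 ± 4.08 to 108.7 ± 2.55 normalized counts (SD of 2 libraries; log2FC −1.56, edgeR adjusted p = 1.05e-07), and MTHFD1 had a log2FC of −0.39 (edgeR adjusted p = 0.00259). The median log2FC of the list was 0.42.

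In the cystine and glutathione list, 5 of 12 retained genes passed as higher (41.7%) and 1 as lower (8.33%). Of all genes, 19.9% and 18.8% did. The median log2FC of the list was 0.22. TXNRD1, thioredoxin reductase, rose from 5017 ± 14.3 to 9286 ± 1566 normalized counts (SD of 2 libraries; log2FC 0.89, edgeR adjusted p = 2.53e-07). CTH, which makes cysteine from cystathionine, rose with a log2FC of 0.78 (edgeR adjusted p = 2.56e-05). KEAP1, the repressor of NRF2, rose with a log2FC of 0.45 (edgeR adjusted p = 0.000637). CBS had a log2FC of 0.36 (edgeR adjusted p = 0.0149) and NFE2L2 one of 0.20 (edgeR adjusted p = 0.0475), and neither passed with DESeq2, with library size alone or without 3 of the 4 libraries in turn. The adjusted p without a library reached 0.117 for CBS and 0.409 for NFE2L2, whose log2FC was then 0.13 (without replicate 2 of 4 h). NFE2L2 also did not pass with the trend removed (log2FC 0.085, adjusted p = 0.425), without a filter or with a filter at a CPM of 2. The enzymes of glutathione synthesis, GCLC (log2FC 0.25), GCLM (0.22) and GSS (0.13), did not pass (edgeR adjusted p from 0.124 to 0.282), unlike SLC7A11, with a log2FC of 1.45. The lower gene was ABCC1, which exports glutathione conjugates, with a log2FC of −0.23 (edgeR adjusted p = 0.0308). It did not pass with DESeq2 or without 3 of the 4 libraries in turn (adjusted p up to 0.182).

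**Figure D5:**
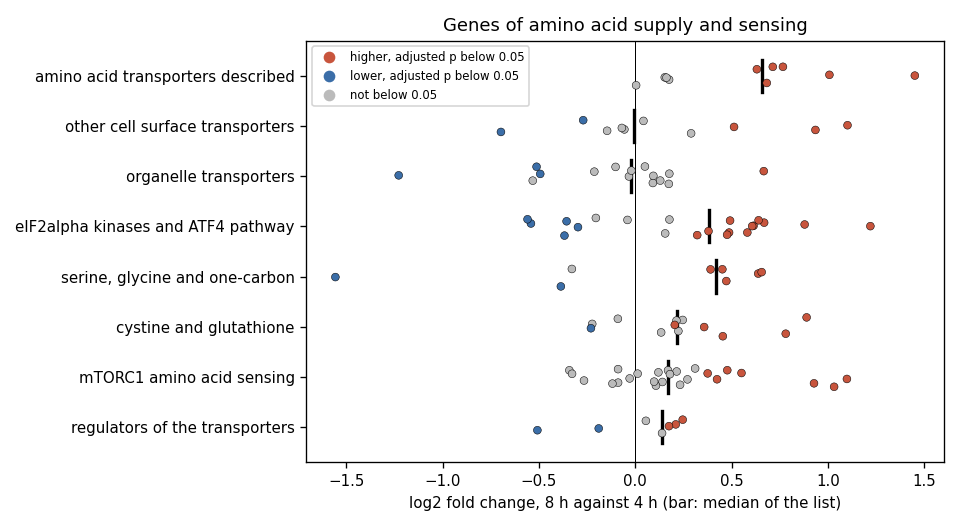
Log2 fold change, 8 h against 4 h, of every retained gene in the 8 lists of amino acid supply and sensing, 1 point per gene, with a bar at the median of each list (points are spread vertically for legibility). Red genes passed as higher, blue genes as lower, and grey genes did not pass; the medians run from −0.02 (organelle transporters) to 0.66 (the 10 transporters).

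The list on amino acid sensing by mTORC1 also holds genes of the kinase complex itself, such as MTOR and RPTOR, and TSC1, TSC2 and RHEB. Of its 25 retained genes, 7 passed as higher (28%, against 19.9% of all genes). None passed as lower, against 18.8% of all genes. None was lower at an unadjusted p below 0.05 either, nor by Limma-Voom or DESeq2. The median log2FC was 0.17. Folliculin and its partners, which act on the Rag GTPases at the lysosome, were the highest. FNIP1 rose from 277.3 ± 19.1 to 593.8 ± 3.72 normalized counts (SD of 2 libraries; log2FC 1.10, edgeR adjusted p = 2.16e-07), FNIP2 had a log2FC of 1.03 (edgeR adjusted p = 3.37e-07) and FLCN one of 0.93 (edgeR adjusted p = 3.44e-06). The other genes that passed were SAMTOR (log2FC 0.55), LAMTOR3 (0.48), TSC1 (0.42) and SESN1 (0.38). MTOR (log2FC 0.10) and RPTOR (−0.03) did not pass (edgeR adjusted p = 0.431 and 0.880).

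Of 7 known regulators of the transporters, 3 passed as higher (42.9%) and 2 as lower (28.6%), against 19.9% and 18.8% of all genes. SGK1, a kinase known to raise transporters at the cell surface, fell with a log2FC of −0.51 (edgeR adjusted p = 3.12e-05). MYC had a log2FC of −0.19 (edgeR adjusted p = 0.0440), NEDD4L one of 0.21 (edgeR adjusted p = 0.0467) and CD44 one of 0.17 (edgeR adjusted p = 0.0489). MYC, NEDD4L and CD44 did not pass with DESeq2 (adjusted p from 0.0972 to 0.130) or without at least 3 of the 4 libraries in turn (adjusted p up to 0.291). Without replicate 2 of 8 h the log2FC of CD44 was 0.11. With the trend removed it was −0.016, and that of NEDD4L was 0.11. With library size alone it was 0.068 for CD44 and 0.10 for NEDD4L.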

How the data were processed

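RNA-Seq libraries of RPE-1 cells (TruSeq Stranded mRNA) were made at 4 and 8 h of merbarone treatment. After a FASTQC filter the authors aligned reads to hg19 (Bowtie 1.2.0), kept those with a single position, and deposited raw counts per NCBI Gene identifier, without normalization, for each library. The gene annotation, counting tool and use of strand are not given in the sources used here, so counts on overlapping antisense genes are uncertain. Ungapped mapping loses reads across splice junctions.

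Groups and replicate numbers came from sample titles. The study calls them biological replicates. Nothing else says that they were separate cultures, so p-values measure the spread between these libraries, which may be technical. Replicates were not copies, with a chi-square of 2.67 (4 h) and 3.84 (8 h) per degree of freedom. Symbols came from the RefSeq table of GRCh38.p14 and gene positions and lengths from GENCODE on GRCh37, the assembly of hg19. Counts were filtered (CPM above 1 in at least 2 libraries), TMM-normalized and tested with edgeR 4.0.16 in R 4.3.3, time being the only term. Adjusted p-values cover all 12559 retained genes. The standard error is the log2FC divided by the square root of F, and its interval is a 95% interval on the same degrees of freedom. The biological coefficient of variation was 6.52%. Limma-Voom (limma 3.58.1), DESeq2 1.42.0, other scalings and filters, an abundance-trend correction (loess), a replicate block and leaving out each library were alternatives. Tests were tested on simulated data. The genes of the naming rule were the 10 transporters, genes of each list with an absolute log2FC above 1 or, where there were none, the 3 largest in each direction that passed, and ATF4, DDIT3, ASNS, TRIB3, NFE2L2 and MYC. Some values are not reported here. Transporters and lists were chosen with earlier results of these data known. Protein sequences were not used here.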

Additional observations from a re-analysis of the deposited data

How the results depend on the processing

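The 6 transporters that rose passed, with the same sign, under all 12 alternatives in test, scaling, filter, trend, block and library left out, and at an adjusted p below 0.01. With glmTreat against a log2FC of 1 there was 1 transporter. The number above a log2FC of 1 fell from 2 to 1 (SLC7A11) with library size alone, with a filter at a CPM of 2, and with the trend with mean log2-CPM corrected, and it was 1 to 2 with a library left out. SLC43A1 turned negative with library size alone (−0.10), the filter at a CPM of 2 (−0.0044), the replicate block (−0.0014) and without replicate 2 of 4 h (−0.09) or replicate 1 of 8 h (−0.11), the range with a library left out being −0.11 to 0.099. The trend correction turned SLC38A2 (−0.031) and CD44 (−0.016) negative. None of these reversed values passed. The cause was not tested.

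Over all genes, 2500 were higher and 2367 lower. DESeq2 gave 1498 lower, an adjusted p below 0.01 gave 1536 lower, and glmTreat gave 26 higher and 58 lower. Library size alone gave 1698 higher and 3289 lower. With a library left out, which leaves a lone sample assumed to vary like the others, higher genes ran from 1605 to 2534 and lower from 1509 to 2294. The lowest counts came without either replicate of 4 h (1605 and 1619 higher).

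In the lists, DESeq2 gave 1 lower cell surface transporter, 2 lower eIF2alpha and ATF4 genes, 3 higher and 0 lower cystine and glutathione genes (6 and 1 at an unadjusted p below 0.05), and 0 higher (3 unadjusted) and 1 lower regulator. Library size alone gave 3 higher and 2 lower cystine and glutathione genes and 0 higher regulators (0 unadjusted). The trend correction also gave 0 higher regulators (0 unadjusted) and the filter at a CPM of 2 gave 1. Without a filter there was 1 lower cell surface transporter and 1 lower regulator. With a library left out, the ranges were 1 to 2 lower cell surface transporters, 3 to 5 lower eIF2alpha and ATF4 genes, 3 to 5 higher and 0 to 1 lower cystine and glutathione genes, 3 to 9 higher and 0 to 1 lower mTORC1 genes (3 without replicate 2 of 4 h), and 0 to 2 higher and 1 to 2 lower regulators. With only the bases before the start, 1 transporter held the CARE core, in place of 5.

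Same-numbered libraries are linked in the labels by a number only, and their deviations had a correlation of 0.06 across genes. The study does not say whether they share a culture or a day. With the replicate number as a block, 2829 genes were higher and 2664 lower, and 7 transporters were higher, SLC38A1 being the addition (log2FC 0.17, adjusted p = 0.0411). Over 51 single genes and 12 alternatives, 535 of 612 values kept their direction and side of the threshold, 67 no longer passed, 3 newly passed and 7 changed sign. With about 100 counts per library, changes of SLC43A1 below its interval could not be seen. The planned comparison of protein sequences was not run.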
